A study of Mus musculus with 21 samples.

Results

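The transcripts of 5 chemokine genes that attract T cells, Cxcl9, Cxcl10, Cxcl16, Cxcl12 and Ccl5, were followed across 21 RNA sequencing libraries of mouse pancreatic tumour cells. They were taken by gene symbol from a table of 24623 genes, and all 5 were among the 14337 genes with at least 1 TPM (a length-corrected share of all transcripts) in at least 3 libraries. The cells belonged to the tumour cell clones 6694c2 and 6419c5, had grown under the skin of untreated C57BL/6 mice for 3 weeks and were sorted from the tumours. Each clone had a line titled with the clone name alone, taken as the parental EPHA2-WT line, and 2 lines labelled EPHA2-KO. EPHA2 is a receptor tyrosine kinase that binds ephrins. The values call the knockout lines KOA and KOB, and nothing ties these letters to the numbers of the labels. In 6694c2 each line had 4 libraries and in 6419c5 each had 3. The labels give neither the editing method nor the animal behind each library, so p-values measure the spread between libraries, and with 1 parental line per clone the edit and other differences between lines cannot be told apart.

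Chemokines are small secreted proteins that guide cells carrying the matching receptor. CXCL9 and CXCL10 bind CXCR3 on activated T cells and NK cells and are classical targets of interferon signalling. CXCL16 is made as a membrane protein that can be shed and binds CXCR6, CXCL12 binds CXCR4 and the scavenging receptor ACKR3, and CCL5 binds receptors on T cells and myeloid cells.

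The promoters of Cxcl9 and Cxcl10 are shown because these genes lie close together and had the largest differences of the 5. They come from RefSeq on GRCm38.p6 (mm10), run from 250 bases before to 50 bases after the start site and are written on the minus strand, at chr5:92328030-92328329 for Cxcl9 and chr5:92348840-92349139 for Cxcl10. Capitals mark matches on either strand to TTC, any 3 bases, then GAA (a GAS element), to GAAA, any 2 bases, then GAAA (the core of an interferon response element), or to GGG, any 5 bases, then CC (an NF-kappaB element).
Cxcl9: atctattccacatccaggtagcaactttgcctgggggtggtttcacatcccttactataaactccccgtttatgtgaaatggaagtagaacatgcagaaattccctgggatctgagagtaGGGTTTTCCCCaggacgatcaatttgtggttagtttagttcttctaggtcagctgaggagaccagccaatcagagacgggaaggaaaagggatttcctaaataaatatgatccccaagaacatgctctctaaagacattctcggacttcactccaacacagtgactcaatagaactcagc
Cxcl10: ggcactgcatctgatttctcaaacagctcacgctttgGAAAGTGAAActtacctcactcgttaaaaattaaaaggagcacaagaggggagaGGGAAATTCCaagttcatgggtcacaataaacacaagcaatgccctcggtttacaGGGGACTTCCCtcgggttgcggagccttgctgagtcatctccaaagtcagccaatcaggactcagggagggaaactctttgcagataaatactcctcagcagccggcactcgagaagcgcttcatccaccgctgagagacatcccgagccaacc
In Cxcl9 the capitals are a pair of overlapping NF-kappaB matches, and neither other motif was found in the window. Cxcl10 held 1 match to the interferon response core, 213 bases before the start site, and 3 NF-kappaB matches, of which the nearest pair overlap. Of 32851 mouse promoters of the same length, 8.30% held the GAS letters, 3.44% the interferon response core and 50.8% the NF-kappaB letters.

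Before the chemokines, the targeted gene was checked. Epha2 fell in the libraries of 6694c2 labelled EPHA2-KO, by 1.21 ± 0.09 (log2 fold change, SE; limma adjusted p 1.5e-08), from 239.9 to 251.9 TPM in parental libraries to 88.0 to 129.7 TPM. In 6419c5 it was not called, at -0.03 ± 0.10 (adjusted p 0.819), with 143.8 to 220.8 TPM in the libraries labelled EPHA2-KO against 163.6 to 190.4 TPM in parental libraries. The knockout label of 6419c5 is therefore not borne out by transcript level, and every 6419c5 result below concerns the libraries so labelled. A transcript level does not report the protein.

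In both clones Cxcl9, Cxcl10, Cxcl16 and Ccl5 were higher in the libraries labelled EPHA2-KO, and Cxcl12 was not called. With limma on log2(TPM + 1), taking the mean of both knockout lines against parental, 4 of the 5 were called higher in 6694c2, where 23.9% of all tested genes were, and 4 of 5 in 6419c5, where 26.5% were (adjusted p under 0.05). Their median log2 fold change was 1.41 in 6694c2 and 1.24 in 6419c5, against 0.07 and 0.08 over all tested genes. Every knockout library lay above the highest parental library for 4 members in 6694c2 and for 2 in 6419c5, a pattern that 9.40% and 17.8% of all tested genes showed. Without the 2 libraries with the highest level of Mir6236, a microRNA gene (6694c2 KOB library 4 and 6419c5 parental library 3), 4 members were called in 6694c2 and 2 in 6419c5. A fit that treats line as a random effect, so that lines of 1 genotype may differ, called 1 member in 6694c2 (Cxcl9) and 2 in 6419c5 (Cxcl9 and Cxcl10).

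**Figure D1:**
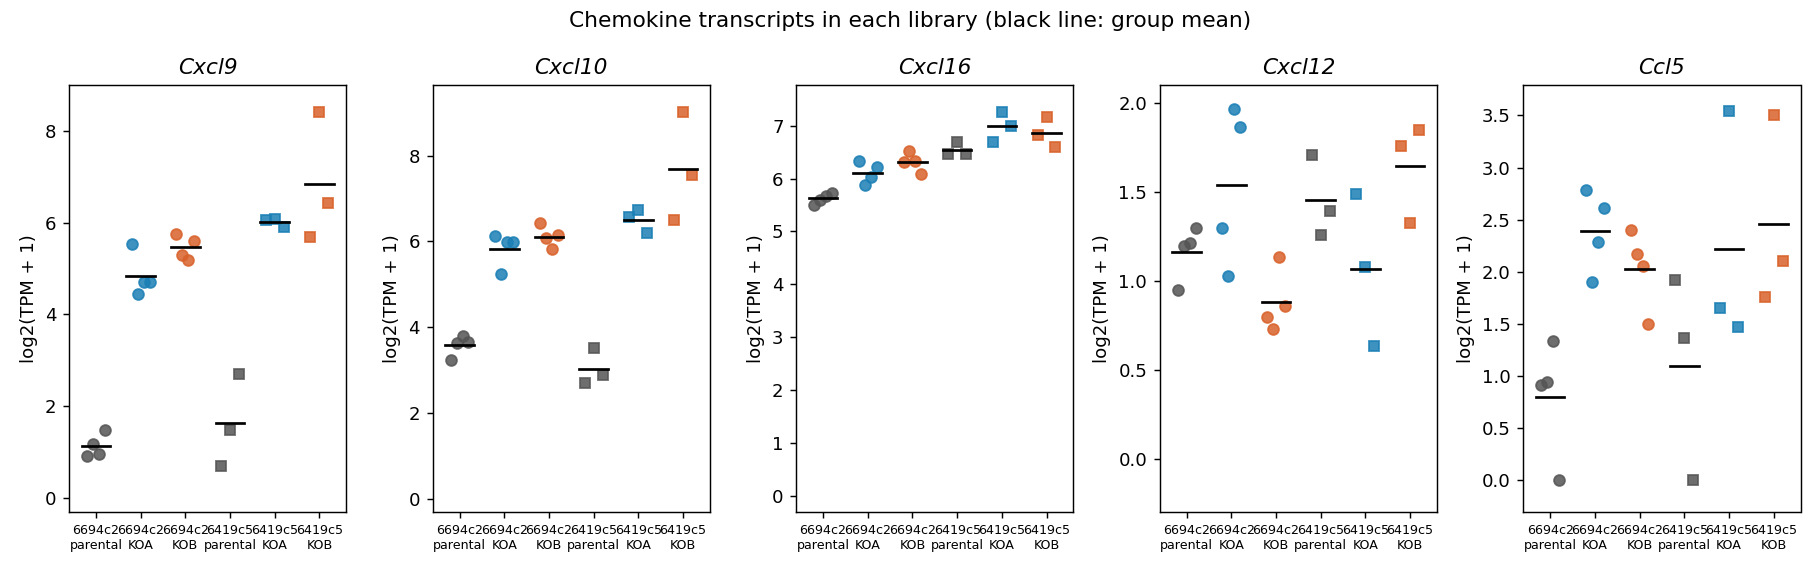
Level of each chemokine transcript, as log2(TPM + 1), in the 21 libraries by clone and line; each point is 1 library and the black line is the group mean. For Cxcl9 and Cxcl10 every knockout library lies above the parental libraries of its clone, for Cxcl16 the 6419c5 groups overlap, and Cxcl12 stays low throughout.

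Cxcl9, a CXCR3 ligand, was nearly silent in the parental lines. In 6694c2 the parental libraries held 0.90, 1.26, 0.94 and 1.78 TPM. The KOA libraries held 45.3, 20.9, 25.0 and 25.0 TPM and the KOB libraries 53.1, 38.3, 35.2 and 47.6 TPM. The lowest knockout library thus lay far above the highest parental one. The log2 fold change was 4.02 ± 0.39 (SE, limma adjusted p 2.97e-07), or 16.2-fold on the log2(TPM + 1) scale with a 95% interval of 9.25 to 28.4, and it was higher in 8 of 8 libraries (exact two-sided permutation p 0.00404, the smallest this design can give, adjusted 0.0101 over 10 tests).

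Cxcl9 in 6419c5 stood at 0.63, 1.78 and 5.48 TPM in parental libraries. The KOA libraries held 65.4, 66.2 and 59.3 TPM, and the KOB libraries 50.2, 339.2 and 85.2 TPM. The 3 KOA libraries were nearly equal, while KOB library 2 stood well above the other KOB libraries, and no knockout library overlapped the parental ones. The log2 fold change was 4.80 ± 0.45 (limma adjusted p 1.67e-07; exact permutation p 0.0238, the smallest possible, adjusted 0.0397). The effect did not differ between clones within the error, the difference being -0.78 with a 95% interval of -2.02 to 0.46 (limma adjusted p 0.347), and the call held when either clone lost any 1 library.

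Cxcl10, the other CXCR3 ligand, started higher in the parental lines than Cxcl9, and its knockout libraries also lay apart from them. In 6694c2 the parental libraries held 8.49, 11.3, 12.9 and 11.7 TPM. The KOA libraries held 68.3, 36.9, 61.9 and 62.8 TPM and the KOB libraries 84.4, 66.4, 55.2 and 69.9 TPM. All 8 lay above the parental range, at a log2 fold change of 2.39 ± 0.31 (limma adjusted p 8.68e-06, exact permutation p 0.00404, adjusted 0.0101). In 6419c5 the parental libraries held 5.53, 10.4 and 6.36 TPM, KOA held 94.1, 104.5 and 72.7 TPM, and KOB held 88.7, 515.9 and 187.4 TPM. The log2 fold change there was 4.06 ± 0.36 (limma adjusted p 8.9e-08, exact permutation p 0.0238, adjusted 0.0397), and KOB library 2 was again the highest.

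The 6694c2 effect on Cxcl10 was smaller than the 6419c5 effect by 1.67 ± 0.47 (log2, SE; limma adjusted p 0.0128), the only 1 of the 5 members for which the clones differed, against 28.6% of all tested genes. Neither the difference nor the 6694c2 call held when the line was a random effect (adjusted p 0.841 and 0.167), and the difference also missed with the KO lines of a clone pooled (0.0533).

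**Figure D2:**
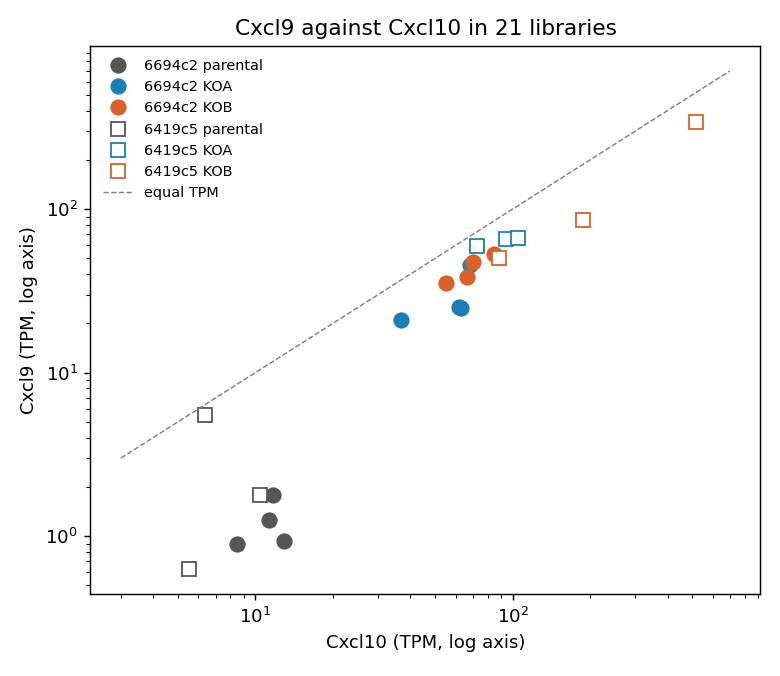
Cxcl9 against Cxcl10 in the 21 libraries, TPM on log axes; circles are 6694c2, squares 6419c5, and the dashed line marks equal TPM. All libraries lie below the line of equal TPM, and the parental libraries other than 6419c5 parental library 3 lie farthest below it.

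Cxcl9 rose more than Cxcl10 in 6694c2, a comparison chosen after the values were seen. There the ratio of Cxcl9 to Cxcl10 TPM was 0.0725 to 0.153 in parental libraries and 0.397 to 0.680 in knockout libraries. All 8 knockout libraries exceeded the parental ones in this ratio. The test used log2(TPM + 1) of Cxcl9 less that of Cxcl10, which is not the log2 of the TPM ratio. On that scale knockout less parental was 1.63 (exact permutation p 0.00404, adjusted over both clones 0.00808). In 6419c5 the parental ratios were 0.113, 0.171 and 0.863, the last in the Mir6236-rich library 3, and the knockout ratios were 0.454 to 0.815, so the groups overlapped (exact permutation p 0.167 on the log2(TPM + 1) scale).

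Cxcl16, the membrane-anchored CXCR6 ligand, was the highest of the 5 in every parental library and in 10 of 14 knockout libraries. In 6694c2 the parental libraries held 44.4, 47.3, 49.9 and 52.1 TPM. KOA held 79.2, 58.0, 64.3 and 73.3 TPM, and KOB held 78.5, 90.3, 79.1 and 66.5 TPM. The 8 knockout libraries all exceeded the parental ones, by a log2 fold change of 0.58 ± 0.11 (limma adjusted p 5.64e-04). In 6419c5 the parental libraries held 87.6, 102.8 and 87.7 TPM, KOA 102.8, 152.3 and 126.5, and KOB 112.4, 141.4 and 95.8, with KOB library 3 inside the parental range. The log2 fold change was 0.38 ± 0.13 (limma adjusted p 0.0292; exact permutation adjusted p 0.068), and it lost its call without parental library 1 (adjusted p 0.0993), parental library 3 (0.102), KOA library 2 (0.0645) or KOB library 2 (0.0675). Parental 6419c5 held more Cxcl16 than parental 6694c2 by 0.92 ± 0.14 (log2, limma adjusted p 3.05e-05), the only 1 of 5 members called between parental lines, where 53.5% of all tested genes were; this call was lost with the line as a random effect (adjusted p 0.0686).

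Ccl5, which recruits T cells and monocytes, was low everywhere. In 6694c2 the parental libraries were listed at 0.89, 0.93, 1.53 and 0 TPM. KOA held 5.88, 2.73, 3.88 and 5.12 TPM, and KOB held 4.26, 3.50, 3.15 and 1.83 TPM. The knockout libraries lay above the parental ones, at a log2 fold change of 1.41 ± 0.41 (limma adjusted p 0.0119), and the call was lost without parental library 4, the one listed at 0 (1.14, adjusted p 0.0605). In 6419c5 the parental libraries were listed at 2.79, 1.58 and 0 TPM, KOA at 2.14, 10.7 and 1.78, and KOB at 2.39, 10.4 and 3.31, so the groups overlapped. Its log2 fold change of 1.24 ± 0.48 passed narrowly (limma adjusted p 0.0447; exact permutation adjusted p 0.179). Without parental library 3 it was 0.70 (adjusted p 0.301), and the adjusted p rose to 0.0938 without KOA library 2, 0.101 without KOB library 2 and 0.0651 without parental library 2. Leaving out any of 7 libraries of the other clone, 6694c2 parental 1 and 2, KOA 3 and 4 or KOB 1, 2 and 3, moved it to between 0.0507 and 0.0533.

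Cxcl12, the CXCR4 ligand, was scarce, and its KO effect was not called in either clone. In 6694c2 the parental libraries held 0.93, 1.29, 1.32 and 1.46 TPM, KOA 1.46, 1.04, 2.91 and 2.64, and KOB 0.74, 0.66, 1.20 and 0.81. In 6419c5 the parental libraries held 2.27, 1.40 and 1.62 TPM, KOA 1.81, 1.12 and 0.55, and KOB 2.38, 1.51 and 2.60. The groups overlapped, and the 95% intervals of the log2 fold change were -0.34 to 0.43 in 6694c2 and -0.54 to 0.34 in 6419c5 (limma adjusted p 0.874 and 0.741).

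The knockout lines of a clone share their parental libraries, so their values are given side by side. In 6694c2, 4 of 5 members were called higher in KOA, where 15.2% of all tested genes were, and 4 of 5 in KOB, where 29.2% were. For 6419c5, 3 of 5 were called in KOA (19.1% of all tested genes) and 2 of 5 in KOB (28.5%), Cxcl16 missing in KOB (0.31 ± 0.15, limma adjusted p 0.106) and Ccl5 in both (1.13 and 1.36, adjusted p 0.135 and 0.0544). In 6694c2 the log2 fold change of Cxcl9 was 3.71 for KOA and 4.33 for KOB, and in 6419c5 it was 4.39 and 5.21. Several of the other calls rested on single libraries. The Ccl5 call of 6694c2 KOA was lost without parental library 4, KOA library 1 or KOA library 4 (adjusted p 0.0798, 0.0579 and 0.0571), and that of KOB without parental library 1, 2 or 4 or KOB library 1, 2 or 3 (0.0604 to 0.134), with no filter on low values (0.065) and in a robust fit (0.0502). The Cxcl16 call of 6419c5 KOA was lost without parental library 1 or 3 or KOA library 2 or 3 (0.0795 to 0.175), with no filter (0.0504), under quantile normalization (0.0676), from its clone alone (0.0999) and without the Mir6236-rich pair (0.0867). Conversely, in 6419c5 KOB, Cxcl16 passed without KOB library 3 (0.039), and Ccl5 passed without parental library 1, KOA library 2, KOA library 3 or KOB library 1 (0.0256 to 0.0499). Between KOB and KOA directly, 1 of 5 members was called in 6694c2, against 46.5% of all tested genes. It was Cxcl12, lower in KOB by a log2 fold change of -0.66 ± 0.21 (limma adjusted p 0.015), a call lost without KOA library 3 (adjusted p 0.0618) or KOA library 4 (0.0579) and under quantile normalization (0.0615). From the libraries of 6694c2 alone, Cxcl9 was also called between KOB and KOA (0.61, adjusted p 0.0377). In 6419c5 limma called 0 of 5, against 17.4% of all tested genes, and 2 of 5 had an unadjusted p under 0.05. The nearest was Cxcl10, higher in KOB by 1.19 ± 0.41 (adjusted p 0.0538); this was called without 6419c5 KOB library 1 (adjusted p 0.00218) and without 6694c2 KOA library 2 (0.0459).

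**Figure D3:**
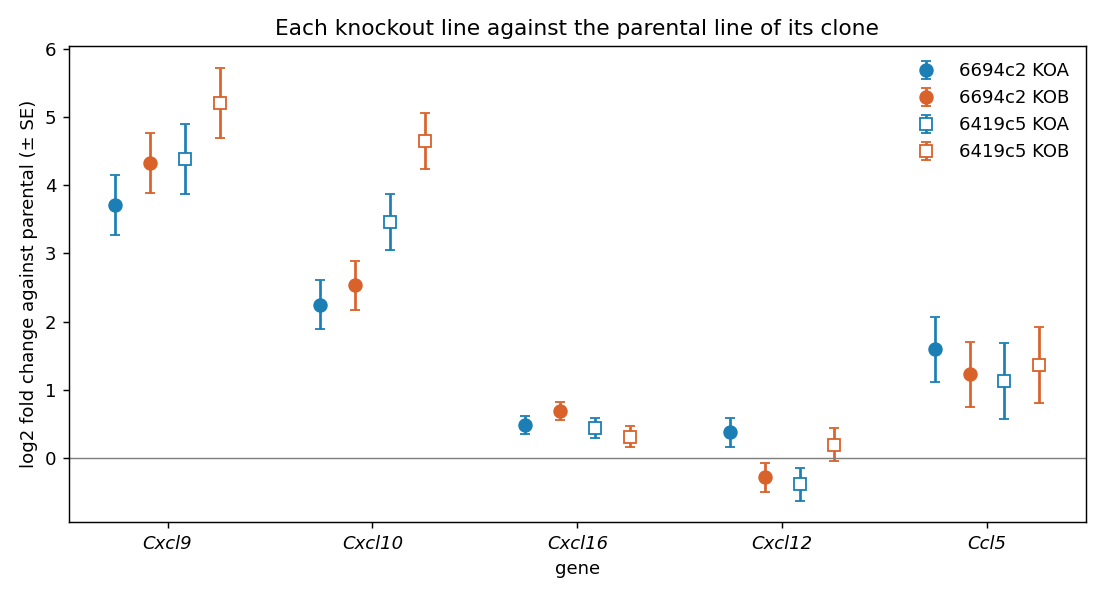
Log2 fold change of each chemokine against the parental line of its clone, with the standard error from limma, for the 4 knockout lines (circles 6694c2, open squares 6419c5). Cxcl9 and Cxcl10 lie well above 0 in all 4 lines, from 2.25 to 5.21, while Cxcl12 lies on either side of 0.

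Around Cxcl9 and Cxcl10 on chromosome 5, which lie 18558 bases apart, the third CXCR3 ligand gene, Cxcl11, rose as well. Its log2 fold change was 1.67 ± 0.26 in 6694c2 and 3.00 ± 0.30 in 6419c5 (limma adjusted p 6.89e-05 and 4.6e-07). Other genes within 100000 bases, named for their place after their values were seen, moved less. Naaa (0.32 and 0.74) and Scarb2 (0.34 and 0.32) were called higher in both clones. Ppef2 (0.0986 and 0.43) was called higher in 6419c5 only (limma adjusted p 0.00442). Sdad1 (0.11 and 0.08) and Nup54 (-0.12 and -0.0031) were not called in either clone. Art3 overlaps Cxcl10 on the opposite strand at a mean of 0.31 TPM, and Zmynd15 overlaps Cxcl16 on the opposite strand at a mean of 11.7 TPM. Whether quantification used strand is not given in the sources used here.

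**Figure D4:**
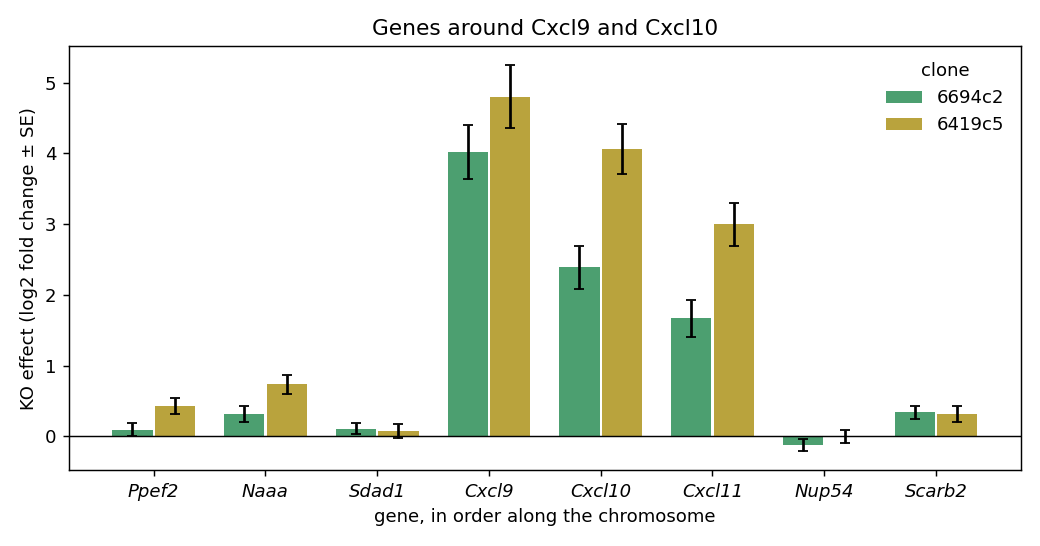
KO effect (log2 fold change with standard error) of the tested genes around Cxcl9 and Cxcl10, in their order along the chromosome, for both clones. The 3 CXCR3 ligand genes in the middle stand between 1.67 and 4.80, and the other genes lie under 0.75.

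The genes whose levels ran most like each member are given as Pearson's r of log2(TPM + 1) over the 21 libraries, which share clone and line. For Cxcl9 they were Gbp4, an interferon-induced guanylate-binding protein (r 0.987), Gbp6, Tapbp, Gbp3 and Gbp2. For Cxcl10 they were Gbp3 (0.978), Ubd, Gbp2, Gbp4 and Cxcl9 (0.962). With group means subtracted, which leaves the variation between libraries of a line, Gbp2 came first for Cxcl9 (0.945) and Gbp4 for Cxcl10 (0.945), and the members correlated with each other at 0.751. Cxcl16 ran most like Ly6e (0.955) and Tmem229b, Ccl5 like Slamf8 (0.828) and Zbp1, and Cxcl12 like Serpina3n (0.854) and Tspan6. With group means subtracted, 0 of the 5 nearest genes were shared for Cxcl16, which then ran most like H2-M2 (0.809), and 0 for Ccl5, then nearest to Gm10371 (0.779). For Cxcl12 1 was shared, Serpina3n (0.860), and for Cxcl9 and Cxcl10 2 each.

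Few receptors of the 5 chemokines were detected. Of 9 receptor genes, 4 were tested, with 0 higher and 1 lower in each clone, where 13.5% of all tested genes were lower in 6694c2 and 15.0% in 6419c5. Cxcr3 reached at most 2.61 TPM and Cxcr6 at most 0.96 TPM in any library, and Ccr3, Ackr1 and Ackr2 stayed under 1 TPM. The scavenging receptor Ackr3 fell in 6694c2, by 1.04 ± 0.12 (log2, limma adjusted p 1.89e-06), and Ccr1, a CCL5 receptor of myeloid cells, fell in 6419c5, by 1.38 ± 0.47 (adjusted p 0.0264). Cxcr4, the signalling receptor of CXCL12, was not called in either clone (0.12 and -0.80).

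Of 15 other ligands that attract lymphocytes or dendritic cells, 12 were tested, with 4 higher and 1 lower in each clone and medians of 0.13 and 0.34. Over all tested genes 23.9% and 26.5% were higher and 13.5% and 15.0% lower. Ccl20, which attracts CCR6-bearing cells, was higher in both (0.76 and 1.87, limma adjusted p 0.041 and 1.65e-04). Its 6694c2 levels were 1.37 to 3.70 TPM in parental, 0.45 to 4.44 in KOA and 5.38 to 10.4 in KOB libraries, so KOA overlapped parental. Ccl27a was called higher in 6694c2 (1.04, limma adjusted p 1.4e-05). There it stood at 17.1 to 20.6 TPM in parental, 18.6 to 31.7 in KOA and 59.6 to 71.2 in KOB libraries. Its value in 6419c5 was 0.35 (limma adjusted p 0.0959), and its difference between the clones is not reported here. Of 5 tested proteases that trim or shed chemokines, 0 were higher and 2 lower in 6694c2, among them Mmp14 (-0.59, adjusted p 4.6e-06), and 1 higher and 0 lower in 6419c5, Adam10 (0.26, adjusted p 0.0286). Of 19 tested genes of interferon and NF-kappaB signalling, 10 were higher and 1 lower in 6694c2, and 15 higher and 0 lower in 6419c5, beside the same shares of 23.9% and 26.5% higher and 13.5% and 15.0% lower over all tested genes. Their medians were 0.35 and 0.51, against 0.07 and 0.08. Irf1, Stat2 and the feedback inhibitor Socs1 were called higher in both clones. Ifng, named after its values were seen, was listed at 0 in all 7 parental libraries and above 0 in 9 of 14 knockout libraries, at up to 0.39 TPM. Ifnb1, of the same list, did not share this pattern. In 6694c2 it was at 0 in all 8 knockout libraries and at up to 0.16 TPM in parental ones. In 6419c5 it reached 0.14 TPM in knockout and 0.17 TPM in parental libraries. Both genes were too low to be tested, and the share of all genes with the Ifng pattern was not counted.

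The sorted cells carried tumour cell markers, with the epithelial keratin Krt18 at 1903 to 3752 TPM, and also markers of other cells, for which fewer cells and less RNA per cell cannot be told apart in bulk RNA. In 6419c5 the summed level of 8 epithelial tumour markers was 5722 to 7460 TPM in parental and 12033 to 15690 TPM in knockout libraries, without overlap, with 5 markers higher and 1 lower (Krt19 by 2.11, limma adjusted p 1.72e-08). The sum of 8 fibroblast and pericyte markers there was 512.1 to 1197 TPM in parental, 166.0 to 191.6 in KOA and 302.8 to 483.3 in KOB libraries, with 0 higher and 4 lower (Dcn at -3.68, adjusted p 1.65e-06). In 6694c2 the epithelial sums overlapped (7662 to 9237 TPM in parental, 6678 to 8897 in KOA and 7813 to 8900 in KOB libraries), with 2 higher and 2 lower. The fibroblast sums in 6694c2 were 85.7 to 120.2 TPM in parental, 84.2 to 295.4 in KOA and 27.3 to 40.1 in KOB libraries, with 0 higher and 2 lower. The part of these shifts in the chemokine results was not tested. For scale, 6694c2 had 23.9% of all tested genes called higher and 13.5% called lower. The matching shares for 6419c5 were 26.5% and 15.0%. All 12 macrophage and monocyte markers were detected, with 0 higher and 0 lower in 6694c2 and 1 higher and 2 lower in 6419c5 (medians -0.43 and -1.80). The 2 of 12 called lower in 6419c5 were thus close to the 15.0% of all tested genes. The summed level of these 12 markers was 328.6 to 1488 TPM in 6694c2 parental, 311.2 to 1044 in KOA and 206.9 to 485.7 in KOB libraries. In 6419c5 it was 993.6 to 2583 TPM in parental, 332.9 to 4341 in KOA and 444.7 to 593.1 in KOB libraries. Cxcl9 in 6419c5 KOA was 66.2 TPM in library 2, where that sum was 4341 TPM, and 65.4 and 59.3 TPM in libraries 1 and 3, where it was 387.0 and 332.9 TPM. Ccl5 in the same libraries was 10.7 TPM in library 2 against 2.14 and 1.78 TPM, so it was high with the markers there, and it was also 10.4 TPM in KOB library 2, where the sum was 593.1 TPM. The part of these cells in the Ccl5 result was not tested.

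**Figure D5:**
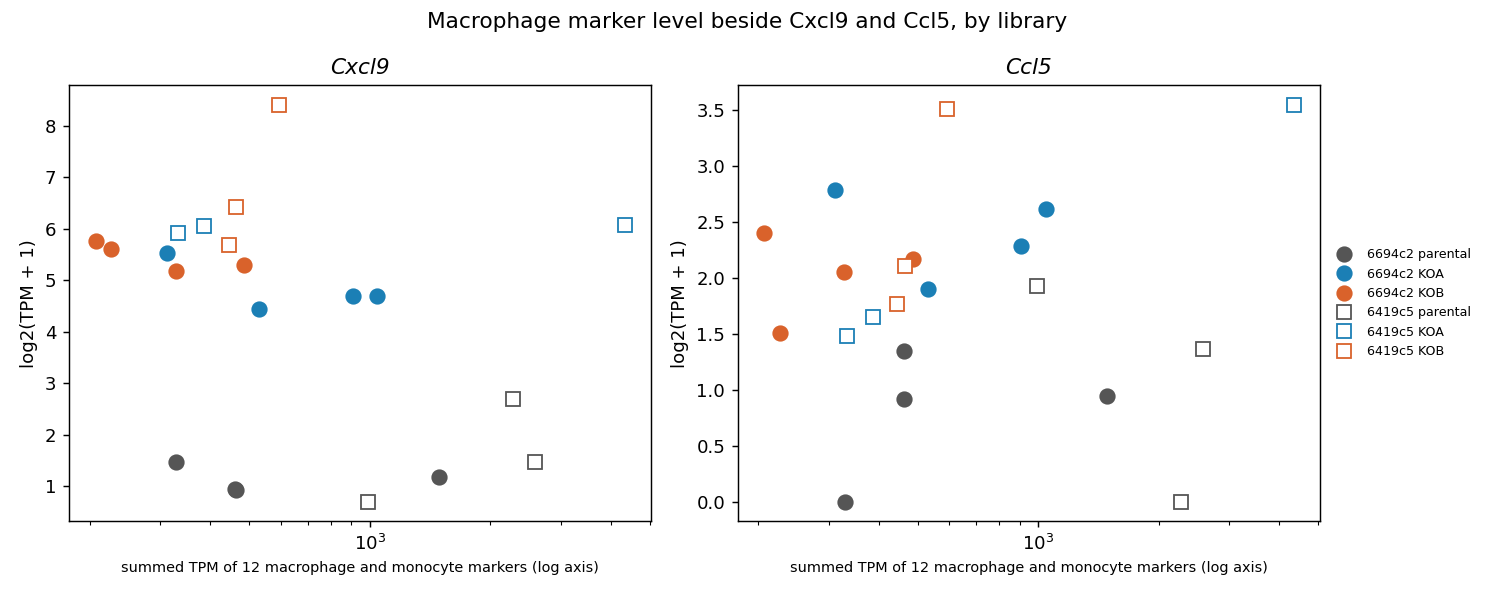
Level of Cxcl9 and Ccl5, as log2(TPM + 1), against the summed TPM of 12 macrophage and monocyte markers (log axis) in each library; filled circles are 6694c2 and open squares 6419c5. The 6419c5 KOA library at 4341 TPM is among the highest for Ccl5 and lies with its group for Cxcl9.

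Of 9 T cell markers in the table, 2 were tested, with 2 higher and 0 lower in 6694c2 (Cd3d by 0.56 and Lck by 0.50, limma adjusted p 0.00842 and 0.022) and 0 higher and 0 lower in 6419c5. The clones had 23.9% and 26.5% of all tested genes called higher. The summed level of the 9 markers was 3.54 to 4.53 TPM in 6694c2 parental, 5.63 to 10.1 in KOA and 6.36 to 8.22 in KOB libraries, and 5.25 to 5.50, 4.74 to 12.6 and 3.37 to 8.23 TPM in 6419c5. Cd3e, part of the T cell receptor complex, was at most 0.58 TPM, too low to be tested, but every knockout library lay above the parental ones of its clone: 0.13 to 0.52 against 0 to 0.0706 TPM in 6694c2, and 0.11 to 0.58 TPM in 6419c5, where the parental libraries were listed at 0. Over all tested genes 9.40% showed this pattern in 6694c2 and 17.8% in 6419c5. Cd3e was not among the tested genes, and the share for genes this low was not counted. In 6694c2 Cd3d and Cd3g also lay above in 8 of 8 libraries, but Cd2 in 4 of 8 and Cd5 in 1 of 8. In 6419c5 Cd3g did in 4 of 6, and Cd3d and Cd2 in 1 of 6 each. The summed level of 7 NK and cytotoxic cell markers was 0.45 to 0.59 TPM in 6694c2 parental, 2.3 to 7.74 in KOA and 1.52 to 2.92 in KOB libraries, so these groups did not overlap. In 6419c5 it was 0.33 to 0.88 TPM in parental, 0.37 to 0.79 in KOA and 0.30 to 2.37 in KOB libraries, which overlapped. Nkg7, of cytotoxic lymphocytes, was listed at 0 in the 6694c2 parental libraries and at 0.29 to 1.18 TPM in the 8 knockout libraries. In 6419c5 it lay above the highest parental library in 3 of 6 knockout libraries. Of the NK and cytotoxic list 1 gene was tested, and it was not called in either clone. The summed T cell and cytotoxic markers were thus higher in 6694c2 knockout libraries, at low levels, but not every marker was. Cd3d made up much of the T cell sum, at 2.29 to 2.61 TPM in parental and 2.88 to 6.72 TPM in knockout libraries. Cd5 went the other way, below the lowest parental library in 6 of 8 knockout libraries. The part of these markers in the chemokine results was not tested.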

How the data were processed

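The deposited values are gene-level TPM made by the authors with Salmon against mm10, per the submitters' processing notes; the Salmon version and annotation are not given in the sources used here. Total RNA (500 ng per library) was sequenced. TPM keeps no counts, so depth is unknown and no counting interval is given.

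Values were analysed as log2(TPM + 1). One limma model with a mean for each of 6 groups was fitted to 21 libraries and 14337 genes (R 4.3.3, limma 3.58.1, statmod 1.5.0; eBayes with trend, 15 residual and 3.12 prior degrees of freedom, two-sided, Benjamini-Hochberg over all tested genes, threshold 0.05). The procedure was tested on simulated data. These held no differences between lines of a genotype, so the error rate with such differences was not tested. The KO effect is the mean of KOA and KOB less parental. Exact permutation tests (Python 3.11.15, scipy 1.17.1) took the two-sided p as double the smaller tail. A version based on the absolute difference, whose p-values are smaller, was also run after the first p-values had been seen; the first is reported. Figures used matplotlib 3.10.9.

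The members and lists were chosen with earlier results of these data known. Named genes were the members, their receptors, Epha2, up to 4 genes per list by smallest p, the 5 most correlated genes and defining markers. Alternatives varied pseudocount, filter, scaling, model and libraries; rescaling without Mir6236 was chosen after seeing the data. Some listed genes are not reported here.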

Additional observations from a re-analysis of the deposited data

Results flagged for a closer look

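Cxcl9 in 6694c2 KOA library 1 stood at 45.3 TPM. This was only narrowly farther from the other 3 libraries of its group than a test for single outlying values allows. It was the 1 flagged of 18 groups of 4 libraries tested. Chance alone flags a small share of groups in such a test. The 6419c5 groups, of 3 libraries each, were not tested, so Cxcl9 at 339.2 TPM in 6419c5 KOB library 2 could not be flagged. The KO effect on Cxcl10 was smaller in 6694c2 than in 6419c5, the difference being -1.67 (log2, limma adjusted p 0.0128). The KO effect on Epha2 was more negative in 6694c2 than in 6419c5, the difference being -1.18 (log2, limma adjusted p 6.79e-06).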

How the results depend on the processing

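Cxcl9 kept its call in both clones under all 35 alternatives run, and Cxcl10 in 6419c5 likewise. With the line as a random effect (correlation 0.546 within a line), the 6694c2 calls of Cxcl10 (2.39), Cxcl16 (0.58) and Ccl5 (1.41), the 6419c5 calls of Cxcl16 (0.38) and Ccl5 (1.24), the Cxcl10 difference (-1.67) and the Cxcl16 difference between parental lines (0.92) were lost, and 130, 589 and 39 genes were called for the 6694c2 effect, the 6419c5 effect and their difference, against 5361, 5942 and 4104. With the KO lines of a clone pooled these counts were 2858, 3690 and 1801, and Cxcl16 (0.38) and Ccl5 (1.24) in 6419c5 and the Cxcl10 difference (-1.67) lost their calls. In 6419c5 Ccl5 also missed at a pseudocount of 0.1 (2.34), with no filter, in a robust fit and from its clone alone (each 1.24), with size factors (1.16) and without the Mir6236-rich pair (0.70). Cxcl16 in 6419c5 also missed under quantile normalization (0.23), from its clone alone (0.38) and without the Mir6236-rich pair (0.34).

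Cxcl12 in 6694c2 turned sign with size factors (-0.0101) and quantile normalization (-0.0624), and no call rested on it. Size factors moved the higher and lower calls over all genes from 3429 and 1932 to 2716 and 3021 in 6694c2, and from 3796 and 2146 to 3175 and 3120 in 6419c5, with 4 members called in 6694c2 and 3 in 6419c5. Leaving out 1 library, the KO effects ranged from 1.14 to 1.59 (Ccl5, 6694c2), 0.70 to 1.66 (Ccl5, 6419c5), 0.30 to 0.45 (Cxcl16, 6419c5), -0.028 to 0.13 (Cxcl12, 6694c2) and -0.20 to 0.0304 (Cxcl12, 6419c5), their mean for Cxcl12 from -0.0791 to 0.0373, and the Ccl5 clone difference from -0.25 to 0.71. Parental 6419c5 against 6694c2 ranged from -0.0439 to 0.95 for Cxcl9 (-0.0439 without the Mir6236-rich pair) and -0.12 to 0.84 for Ccl5. KOB against KOA in 6419c5 ranged from -0.29 to 0.90 for Ccl5 and -0.27 to 0.0124 for Cxcl16. The cause of these changes was not tested.

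Library numbers showed no pairing in 6694c2, where 2 of 12 same-numbered and 9 of 36 other pairs deviated together at r over 0.1. In 6419c5 4 of 9 same-numbered and 3 of 18 other pairs did. The median r there was 0.0528 and -0.0457, so pairing by number was not settled in that clone. A replicate block left the KO effects as they were, called 4915 and 5585 genes, and brought Ccl5 in 6419c5 KOB (1.36, adjusted p 0.0208) and Cxcl10 in KOB against KOA of 6419c5 (1.19, adjusted p 0.0325) past the threshold. Parental lines could not be compared under the block, since numbers are nested in clones. The filter at 5 TPM left no value for Cxcl12. The absolute-difference permutation p, adjusted, was 0.00505 for the 4 members called in 6694c2 and 0.0198 for Cxcl9 and Cxcl10 in 6419c5, and changed no call.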
